A study of Homo sapiens with 15 samples.

Results

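RNA levels in latent brain-tropic cells were compared with those in the parental line they came from. The line is HCC1954, an established human breast cancer line that carries extra copies of ERBB2, the gene of the receptor HER2. The series holds 15 RNA-seq libraries, and 7 of them entered the comparison: 4 of cells that the labels call brain-tropic latent or residual (Lat) and 3 of parental cells (Pa). The other 8 are 4 libraries of synchronous (S-BM) and 4 of metachronous (M-BM) brain metastatic cells of the line. No drug, allele or other agent separates the groups in the labels. All were grown as cells in a medium called R3F and kept overnight in 1 ml before RNA was taken. The labels describe cultured cells, so brain tissue was not what was sequenced, and nothing in them tells if replicate libraries were made from different animals, clones or culture dishes. Spread between libraries may therefore be technical. Of 19845 gene names, 9802 were kept, those whose normalized count reached 10 in 3 or more of the 7 libraries.

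As background, HER2-positive breast cancers spread often to the brain, and single cells can persist there for long periods without forming a lesion. Such latent cells are known for slowed growth, for escape from natural killer cells and for an altered use of nutrients. Cells taken from them and expanded in culture can be set against the parental line to see which expression states they keep.

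The Lat libraries stand in the authors' table with S-BM and M-BM, and the Pa libraries stand in another. Group and table therefore cannot be told apart in any Lat and Pa difference, and no test was run across the tables. A gene was called separated, and counted as higher or lower in Lat, when the 4 Lat and the 3 Pa libraries did not overlap and the mean of log2(normalized count + 1) differed by at least 1, which is 2-fold on that scale. Differences below are Lat minus Pa on that scale unless another pair is named, with the standard error over libraries, and understate the change of genes with low counts. S-BM levels, from the same table as Lat, are given beside some of them and not for every gene. Lat was tested against S-BM with limma, a linear model fitted over all genes of the shared table. Both comparisons use the same Lat libraries and are not independent. Rose and fell are used only for that test. In RNA of whole cultures, fewer cells of a type and less RNA per cell cannot be told apart.

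Libraries held 14.15 to 19.5 M recovered reads in Lat and 15.51 to 18.66 M in Pa, so that 3 reads corresponded to a normalized count between 0.154 and 0.209. Lat 3 stood apart. Squared differences between its read counts and those of the other Lat libraries averaged 36.7 to 42.1 times the value from counting noise. This measure was 3.88 for Lat 1 and Lat 2, 6.18 to 18.5 among Pa libraries and 3.40 to 67.7 among S-BM libraries. S-BM 3 and S-BM 4 stood apart from S-BM 1 and S-BM 2 in ERBB2, at 353 and 367 against 4109 and 4642. Epithelial genes were read in all 7 libraries, with KRT18 between 1812 and 2051 in Pa and between 1166 and 1308 in Lat, and EPCAM between 208 and 273 in Pa and between 179 and 192 in Lat. KRT8 was further apart, between 1671 and 2005 in Pa and between 486 and 597 in Lat. KRT19 and CDH1 were also separated and lower in Lat. KRT19 lay close to the 2-fold distance, at −1.03. It was not separated without Lat 2 (−0.877), without Pa 2 (−0.977) or after quantile normalization (−0.907), among other alternatives. Of the markers of brain and stromal cells, GFAP, SNAP25, MOG, PTPRC, AIF1 and TMEM119 were below 1 in all 7, as were 5 of 6 astrocyte, 2 of 8 neuron, 2 of 6 oligodendrocyte, 6 of 8 microglia and leukocyte, 5 of 7 endothelial and 4 of 7 fibroblast and pericyte markers.

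Between Lat and Pa, 2330 of 9802 genes (23.8%) were separated, 984 higher in Lat (10.04%) and 1346 lower (13.7%). At a distance of at least 8-fold, 60 were higher (0.612%) and 154 lower (1.57%). Without the condition on size, 7092 genes (72.4%) did not overlap. The median difference over all genes was −0.01, with quartiles at −0.55 and 0.50. By the same rule, 408 of 9585 genes (4.26%) separated S-BM from Pa and 1883 of 9747 (19.3%) separated M-BM from Pa, and those pairs lie across the same 2 tables and share the Pa libraries. Within the shared table, 5754 of 9646 genes (59.7%) passed the limma test between Lat and S-BM, of which 2917 rose (30.2%) and 2837 fell (29.4%). In the latent cells, separated members of the mesenchymal list (7 of 11 genes), of early response genes (10 of 22), of the integrated stress response (11 of 30) and of ribosome biogenesis (10 of 30) lay mainly above the parental line, and those of cholesterol synthesis (14 of 23), the interferon response (19 of 28) and the luminal list (12 of 23) below it.

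**Figure D1:**
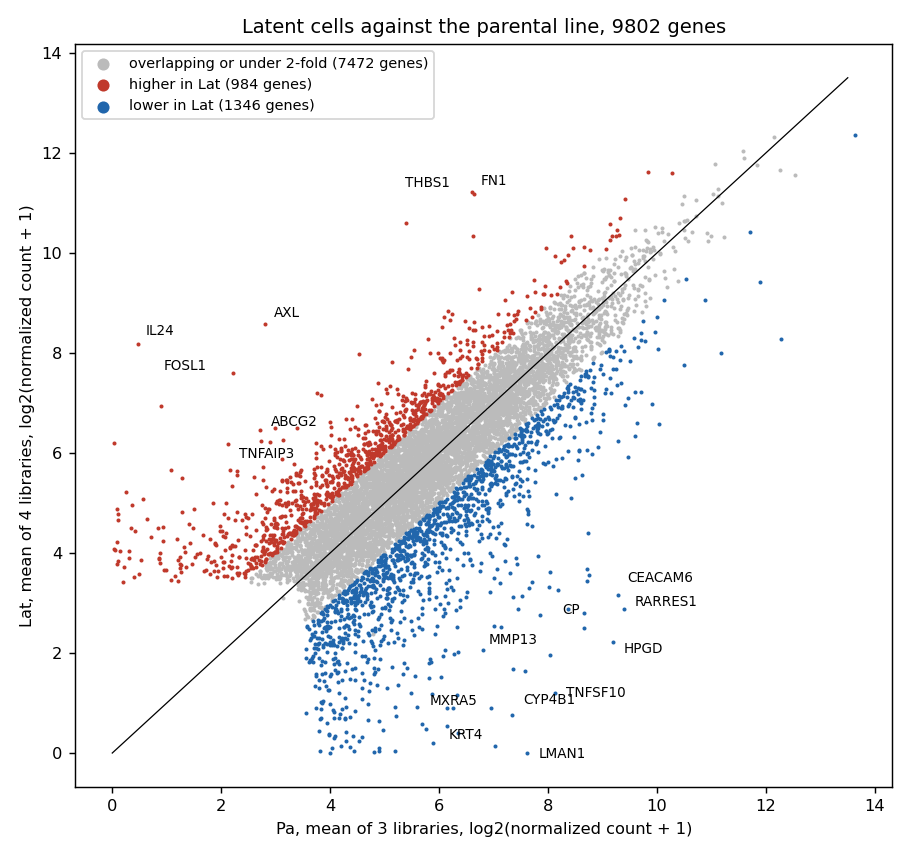
Each point is 1 of the 9802 genes kept, with the mean log2(normalized count + 1) of the 3 Pa libraries on the horizontal axis and of the 4 Lat libraries on the vertical axis. The 984 genes separated and higher in Lat are red, the 1346 lower are blue, the line marks equal levels, and names mark genes among the 10 largest differences in each direction above the median level.

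Promoter sequences of genes that lay lower in Lat are shown first, because members of the interferon list and of the cholesterol list share short motifs there. They come from RefSeq (GRCh38.p14), which held a promoter for 8064 of the genes kept, and the 250 bases before the first start listed there for each gene were searched on both strands. More than 1 start is listed for 2331 of these genes, and for IFI27 and DHCR7 the window used lies inside the annotated gene. The core of the interferon-stimulated response element, written GAAA and GAAA with 2 bases between, which interferon-activated factors bind, was found in 9 of 16 promoters of the interferon-stimulated genes that were lower in Lat (56.2%), against 188 of 8064 in all (2.33%). Members that were not lower were not counted, so the share may belong to the whole list and is not tied to the difference. The 9 with a match included IFI27, IFIT1, IFIT3 and IFI44, and the promoter of TNFSF10, which encodes the death ligand TRAIL and is not on that list, also holds a match. Matches did not go with 1 direction among the 10 largest differences. They were in 1 of 8 promoters of the lower genes, that of TNFSF10, and in 1 of 6 of the higher genes, that of IL24. In the stretches printed here, 5′ to 3′ on the gene's strand, capitals mark each match, which reads TTTC and TTTC with 2 bases between where it lies on the opposite strand. The stretches are IFI27 at chr14:94110608-94110670 (+ strand), IFIT1 at chr10:89392487-89392549 (+), IFIT3 at chr10:89327821-89327904 (+), IFI44 at chr1:78649751-78649788 (+) and TNFSF10 at chr3:172523588-172523637 (− strand).
IFI27: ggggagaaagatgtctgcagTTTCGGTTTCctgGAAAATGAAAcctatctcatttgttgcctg
IFIT1: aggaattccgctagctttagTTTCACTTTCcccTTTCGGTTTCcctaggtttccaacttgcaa
IFIT3: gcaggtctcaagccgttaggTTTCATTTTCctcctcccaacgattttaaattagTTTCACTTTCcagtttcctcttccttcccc
IFI44: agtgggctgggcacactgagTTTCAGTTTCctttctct
TNFSF10: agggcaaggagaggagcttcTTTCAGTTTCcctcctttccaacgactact

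The CCAAT box, bound by the factor NF-Y, was found in 8 of 9 promoters of the cholesterol synthesis genes that were lower in Lat (88.9%), against 2951 of 8064 in all (36.6%). A sterol response element in the form TCACNCCAC was found in 0 of these 9 and in 71 of all (0.88%), which says only that these letters are not in these windows. The AP-1 letters TGANTCA were in 0 of 6 promoters among the 10 largest differences in the higher direction and in 287 of all (3.56%). Capitals mark the CCAAT box, which reads ATTGG on the opposite strand, in stretches of INSIG1 at chr7:155297688-155297732 (+), HMGCS1 at chr5:43313488-43313587 (−), LSS at chr21:46228900-46228944 (−) and DHCR7 at chr11:71448417-71448507 (−). List members that were not lower were not counted here either, so the share with a CCAAT box may belong to the whole list. A match is a description of the letters and not a site of binding.
INSIG1: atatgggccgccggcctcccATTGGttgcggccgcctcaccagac
HMGCS1: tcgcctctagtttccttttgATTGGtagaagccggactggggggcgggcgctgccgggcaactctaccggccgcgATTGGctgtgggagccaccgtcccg
LSS: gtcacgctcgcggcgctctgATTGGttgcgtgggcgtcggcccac
DHCR7: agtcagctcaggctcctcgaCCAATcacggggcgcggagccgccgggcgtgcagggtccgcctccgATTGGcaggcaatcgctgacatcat

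Among genes above the median level, the largest difference was that of IL24, a cytokine of the interleukin-10 family (GRCh38 chr1:206897443-206904139). Its normalized counts were 0.265, 0.937 and 0.109 in Pa 1 to 3 and 268, 264, 489 and 196 in Lat 1 to 4, a difference of 7.69 ± 0.37 (SE). S-BM libraries lay at 4.33, 0.455, 3.67 and 3.26. The library at 0.455 was within the parental range, and the others lay above every Pa library and far below every Lat library. IL24 rose from S-BM to Lat by 6.35 ± 0.43 (limma, adjusted p = 2.01e-07).

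The other genes with the largest higher differences encode receptors, matrix proteins and regulators of signalling. AXL, a receptor tyrosine kinase, was at 4.57, 9.18 and 5.08 in Pa and at 433, 411, 329 and 351 in Lat, with S-BM libraries spread from 7.03 to 114 and the lowest of these inside the Pa range. FOSL1, an AP-1 subunit, was at 3.44, 3.87 and 3.55 in Pa and at 178, 179, 247 and 174 in Lat, and S-BM lay between 6.88 and 21.5. ABCG2, a drug efflux pump, was at 7.21, 6.68 and 3.38 in Pa and at 92.0, 93.8, 65.6 and 101 in Lat. For ABCG2 the S-BM libraries, between 3.49 and 5.36, lay within the parental range. FN1, which encodes fibronectin, was at 73.9, 98.8 and 121 in Pa and at 1816.5, 1795, 4951 and 1940 in Lat. THBS1, which encodes the matrix protein thrombospondin-1, was at 98.4, 101 and 96.3 in Pa and at 2235, 2225, 4294 and 1355 in Lat. For these 2 genes the S-BM libraries lay between the groups, at 341 to 546 and 345 to 946, and Lat 3 was the highest library. TNFAIP3, an inhibitor of NF-κB signalling, was 4.05 ± 0.37 higher in Lat, at 37.7 to 135 against 3.17 to 3.51, with S-BM at 15.2 to 39.0.

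The largest lower difference was that of LMAN1 (chr18:59327823-59359265), a cargo receptor that carries glycoproteins from the endoplasmic reticulum to the Golgi. Its values were 214, 188 and 186 in Pa and 0 in all 4 Lat libraries, which is at least 1145-fold lower against a floor of 3 reads per library. S-BM libraries lay at 89.6, 118, 99.0 and 95.8, so the gene was read in the same table as the zeros. Genes on both sides were read in Lat. SEC11C, its neighbour on the side of lower coordinates among genes kept, was at 26.6 to 44.0 in Lat and 15.89 to 16.01 in Pa, and PMAIP1 on the other side was at 48.1 to 119 in Lat and 43.5 to 62.6 in Pa. Neither reached the 2-fold distance on the log2 scale used. Genes further out differed. ATP8B1, TNFRSF11A, PHLPP1 and KIAA1468 were separated and lower, at −2.15, −1.73, −1.31 and −1.11, and MALT1 was separated and higher, at 1.36. NARS, NEDD4L, ZNF532, PIGN and ZCCHC2 were not separated.

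Next came genes of secretion, mucosal epithelium and metabolism. HPGD, which breaks down prostaglandins, was at 588, 474 and 706 in Pa and at 3.65, 5.32, 1.86 and 4.46 in Lat, with S-BM at 30.1 to 123. TNFSF10 was at 283, 237 and 324 in Pa and at 1.39, 0.720, 3.002 and 0.697 in Lat, with S-BM at 54.1 to 143. RARRES1, a gene induced by retinoids, was at 748, 745 and 533 in Pa and at 9.45, 9.75, 1.86 and 7.88 in Lat. For RARRES1 the S-BM libraries, at 379 to 495, lay nearer to Pa, and it fell from S-BM to Lat by 5.93 ± 0.71 (limma, adjusted p = 1.06e-05). CP, which encodes the copper carrier ceruloplasmin, was at 432, 337 and 456 in Pa and at 8.73, 6.53, 1.14 and 5.51 in Lat, with S-BM at 93.0 to 361. The keratin KRT4, the cytochrome CYP4B1, the adhesion protein CEACAM6, the collagenase MMP13 and the matrix protein MXRA5 were lower by 6.05 to 6.89, with S-BM between the groups for each. KRT4 and CEACAM6 belong to families of similar sequence, in which reads may be shared.

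**Figure D2:**
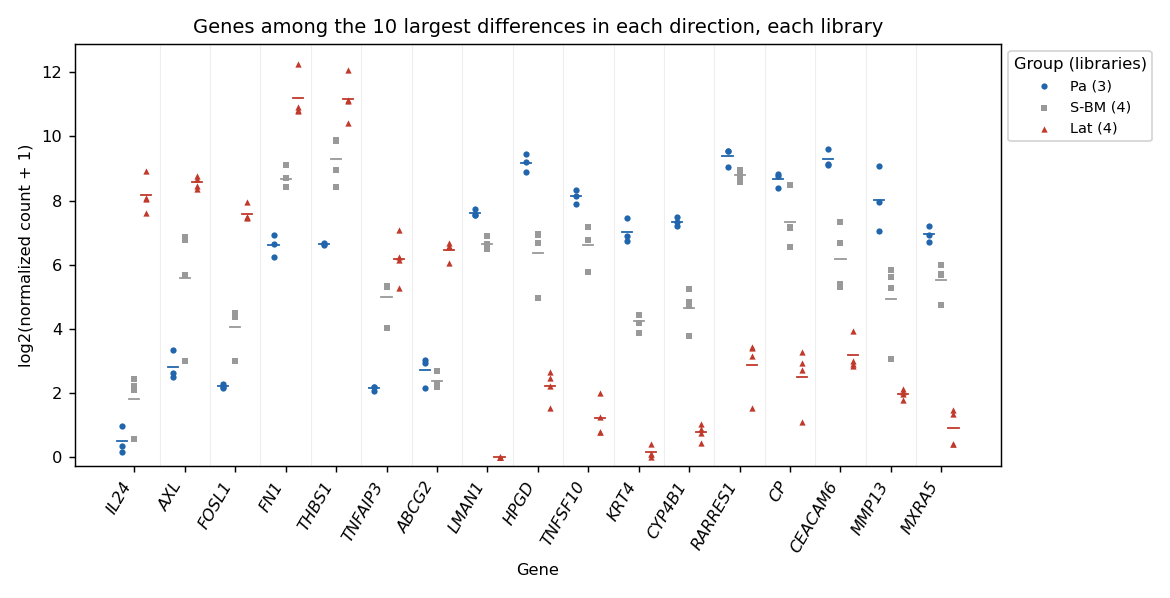
Log2(normalized count + 1) of every Pa, S-BM and Lat library, for genes among the 10 largest differences in each direction, higher in Lat first. Short bars are group means, and S-BM lies near Pa for ABCG2 and between the groups for FN1 and THBS1.

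A few genes crossed between no reads and clear expression. Of the 984 genes higher in Lat, 8 had at most 3 reads in every Pa library, ZDHHC2, ADAM12, COL15A1, IL1RAPL1, TLR4, PVRL3 and RNF182 among them. ZDHHC2, a palmitoyltransferase, had 3 reads over all Pa libraries, and the ratio was 438 (95% counting interval 160 to 2260). For TLR4, a receptor of innate immunity, the single Pa read gave a ratio of 795 (146 to 3.211e+04). S-BM lay at 1.34 to 9.74 for TLR4, 0.150 to 3.795 for ZDHHC2 and 0.253 to 3.08 for IL1RAPL1. It reached at most 0.855 for the others named. Of the 1346 genes lower in Lat, 9 had at most 3 reads in every Lat library: LMAN1, CYP4Z1, CXCL17, SELENBP1, B3GNT3, WDR72, SLC15A2, TSPAN12 and FUT2. TSPAN12, a tetraspanin, had 0 reads in all 4 Lat libraries and 748 in Pa, at least 87.9-fold lower. These counting intervals cover the reads only.

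Separated luminal genes were all lower. Of 23 luminal epithelium genes kept, 0 were higher and 12 lower, with a median of −1.03 beside −0.01 and 23.8% separated over all genes. Against S-BM, 14 of 23 fell and 3 rose, where 29.4% of all genes tested fell and 30.2% rose. Counts of lists against S-BM below stand beside these shares. Counts between Lat and Pa stand beside 10.04% higher and 13.7% lower over all genes. MUC1, a surface mucin, was at 65.8, 48.6 and 53.6 in Pa and at 2.31, 2.71, 2.23 and 2.79 in Lat, with S-BM at 33.6 to 64.3. AGR2, a secretory pathway isomerase, was at 239, 228 and 205 in Pa and at 13.04, 13.6, 10.5 and 22.0 in Lat. The transcription factors FOXA1, SPDEF and GATA3 were lower by 1.93, 1.76 and 1.68. EPCAM, CLDN4 and GRHL2 were not separated. CDH1, which encodes E-cadherin, was at 835, 827 and 892 in Pa and at 401, 401, 348 and 445 in Lat, a difference of −1.10 ± 0.08.

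Basal and squamous genes split. Of 22 kept, 5 were higher and 9 lower, with a median of −0.71, beside 10.04% higher and 13.7% lower over all genes. Among the higher members were the laminin chains LAMA3 and LAMB3, the hemidesmosome collagen COL17A1 and the keratin KRT80. The lower ones included the keratins KRT13, KRT15 and KRT6A. KRT15 was at 5186, 5002 and 4691 in Pa and at 339, 294, 240 and 389 in Lat, with S-BM at 1664 to 2766.

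Mesenchymal genes were mostly higher. Of 11 kept, 7 were higher and 0 lower, with a median of 1.39, the highest of the 38 lists. FN1, AXL, CALD1 and ACTA2 led. CALD1, which binds actin, was at 13.1, 14.7 and 17.8 in Pa and at 82.4, 84.0, 76.0 and 80.3 in Lat. For CALD1 the S-BM libraries lay above every Lat library, at 90.2 to 172. Its Lat and S-BM difference was −0.64 (limma, adjusted p = 0.0394). Without S-BM 3 and S-BM 4 it was −0.62 and did not pass the test (limma, adjusted p = 0.123). Against S-BM, 3 of the 11 rose and 3 fell, and 5 rose and 2 fell without S-BM 3 and S-BM 4. VIM, which encodes vimentin, was at 11.9, 13.8 and 20.5 in Pa and at 6.06, 5.87, 37.0 and 5.65 in Lat. The 3 other Lat libraries lay below Pa at VIM and Lat 3 above it, and without Lat 3 the difference moved from −0.61 to −1.22 and VIM became separated, lower in Lat. ACTA2, which encodes smooth muscle actin, also differed in Lat 3, at 2.95 against 17.1 to 26.2, and moved from 2.31 to 2.92 without it. The Lat and S-BM difference of ACTA2, 0.35, did not pass the test (limma, adjusted p = 0.596). SOX2, a stem cell factor, was at 26.9, 29.5 and 34.8 in Pa and at 0.411, 0.498, 0.155 and 0.488 in Lat, with S-BM at 2.55 to 11.4. SOX9, of the same family, was higher by 1.07 ± 0.08, and DKK1, a WNT inhibitor, was not separated, at 102 to 132 in Lat and 138 to 177 in Pa. L1CAM, an adhesion molecule of neurons and invasive carcinoma cells, was at 15.2, 11.7 and 12.8 in Pa and at 78.5, 70.5, 44.5 and 92.1 in Lat.

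In the NOTCH pathway, 0 of 10 genes kept were higher and 6 lower, with a median of −1.07, beside 13.7% lower over all genes. The receptor NOTCH3 was at 109, 116 and 154 in Pa and at 13.97, 13.3, 13.98 and 16.7 in Lat, with S-BM at 67.0 to 115. The coactivator MAML2, the modifier LFNG, the ligand JAG2, the target HES1 and the receptor NOTCH2 were the other lower members. From S-BM to Lat 8 of the 10 fell, beside 29.4% of all genes tested. YAP targets went the other way, with 8 of 17 higher and 0 lower and a median of 0.67, beside 10.04% higher over all genes. CYR61, a matricellular protein, was at 20.7, 21.4 and 23.2 in Pa and at 92.9, 92.1, 125 and 56.4 in Lat, and F3, which encodes tissue factor, was at 93.9, 94.9 and 129 in Pa and at 607, 621, 868 and 442 in Lat. S-BM lay between the groups for both, at 42.1 to 47.2 and 245 to 426. YAP1 itself was 0.05 apart.

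The receptor that defines the subtype was not separated. ERBB2 was at 4881, 4925 and 4929 in Pa and at 3346, 2943, 2836 and 3775 in Lat, a difference of −0.62 ± 0.09. The groups did not overlap, but the distance was below 2-fold. Against S-BM the value depended on the libraries low in ERBB2, being 1.35 ± 0.70 with all 4 (limma, adjusted p = 0.108) and −0.45 with only S-BM 1 and S-BM 2 kept (limma, adjusted p = 0.0418). Of the 10 genes kept around ERBB2 on chromosome 17, 3 were higher and 1 lower, with a median of 0.22. GRB7, an adaptor encoded beside ERBB2, was at 1232, 1240 and 1236 in Pa and at 3116, 2813, 3030 and 3364 in Lat, so that it was above Pa in the libraries where ERBB2 was below it. MIEN1 and CDK12 were the other higher members and lay close to the 2-fold distance, at 1.07 and 1.00, and without Pa 3 the count was 1. ERBB3, the partner receptor of HER2, was at 160, 162 and 180 in Pa and at 37.7, 39.6, 39.9 and 45.5 in Lat. LRIG1, which lowers ERBB receptors at the surface, was at 61.9, 58.0 and 60.2 in Pa and at 6.62, 5.09, 7.45 and 6.42 in Lat. EGFR and TGFA were not separated.

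Early response genes downstream of growth factor signalling were higher, 10 of 22 against 2 lower, with a median of 0.79. Besides FOSL1 these were MAFF, ETV5, DUSP5, IER3, SPRY4, DUSP6, PHLDA1, ETV4 and DUSP4, several of which are feedback targets of the ERK pathway. MAFF was at 6.62, 4.87 and 5.51 in Pa and at 73.1, 67.2, 91.6 and 67.1 in Lat. FOS and JUND were the 2 lower members, and EGR1 and JUNB differed by 0.05 and 0.07. Against S-BM, 14 of the 22 rose and 1 fell.

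**Figure D3:**
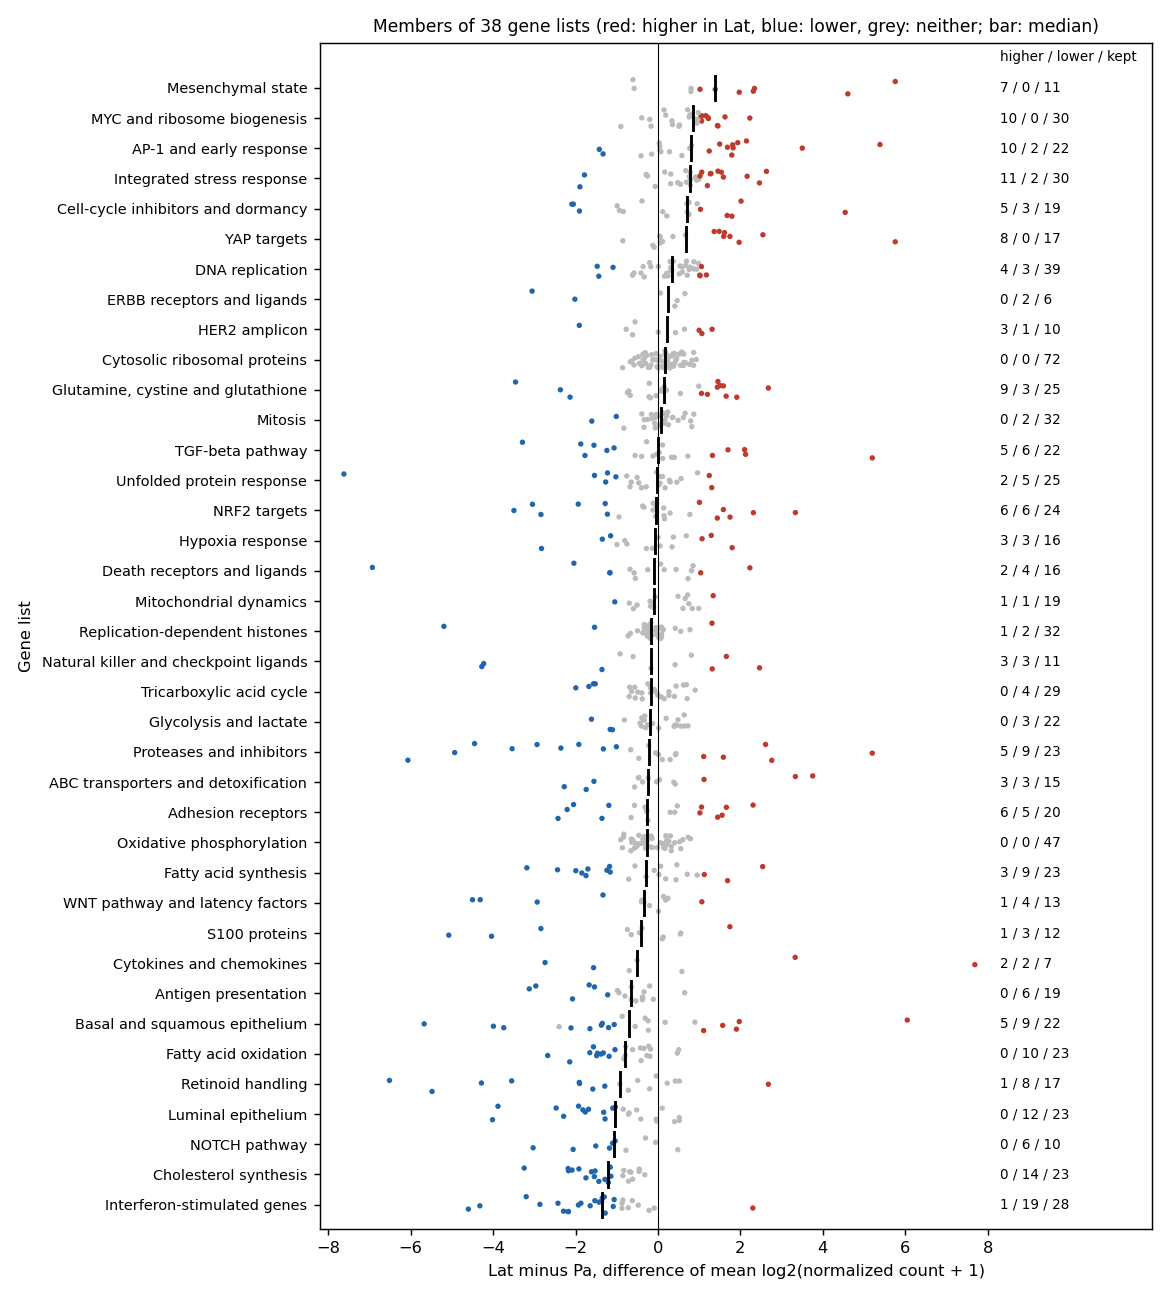
Each point is a gene kept, placed by its Lat minus Pa difference of mean log2(normalized count + 1), in rows for 38 gene lists sorted by their median (black bar). Red points are separated and higher in Lat, blue lower and grey neither, and the numbers give higher, lower and kept, from 7, 0 and 11 for mesenchymal genes to 1, 19 and 28 for interferon-stimulated genes.

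Cholesterol synthesis genes were lower from early to late steps of the pathway. All 23 cholesterol synthesis genes kept had a difference below 0, 14 were separated and lower and 0 higher, and the median was −1.20. From S-BM to Lat 16 of 22 tested fell and 0 rose. HMGCS1, which acts at the entry of the mevalonate route, was lower by 1.53. INSIG1, a sterol sensor of the endoplasmic reticulum, was at 141, 140 and 132 in Pa and at 28.6, 31.6, 27.3 and 31.1 in Lat, and LSS, which closes the sterol rings, was at 142, 130 and 152 in Pa and at 33.5, 33.2, 19.9 and 39.3 in Lat. INSIG1 in S-BM 2, at 163, was above every Pa library, and the other S-BM values of these 2 genes lay between the groups. DHCR7, which acts late in the route, was lower by 2.08 ± 0.17.

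In fatty acid synthesis 9 of 23 genes were lower and 3 higher, with a median of −0.29. SCD, which makes monounsaturated fatty acids, was at 2335, 1996 and 2626 in Pa and at 317, 325, 120 and 332 in Lat, and FASN, the fatty acid synthase, at 631, 745 and 655 in Pa and at 139, 129, 94.9 and 139 in Lat. ACLY, which supplies acetyl-CoA, was at 440, 463 and 420 in Pa and at 109 to 111 in Lat. The regulator SREBF1 and the carboxylase ACACA were lower by 1.70 and 1.75. The higher members were FADS3, FADS1 and ELOVL6, desaturases and an elongase, at 2.54, 1.69 and 1.13. FADS3 was at 4.50 to 6.17 in Pa, 25.1 to 48.5 in Lat and 14.9 to 31.7 in S-BM, and its Lat and S-BM difference of 0.53 did not pass the test with all libraries (limma, adjusted p = 0.0657) and passed with S-BM 1 and S-BM 2 alone (0.89, adjusted p = 0.0103).

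Fatty acid oxidation was also lower, with 10 of 23 lower, 0 higher and a median of −0.80. CRAT and CROT, which move acyl groups onto carnitine, were at 33.3 to 42.5 and 78.8 to 104 in Pa and at 4.26 to 6.21 and 18.2 to 21.2 in Lat. HADH, HADHA and ACADM, enzymes of the oxidation spiral, were lower by 1.56, 1.49 and 1.47. CPT1A, the entry step into mitochondria, was not separated, at 87.1, 78.5 and 97.2 in Pa and at 124, 124, 102 and 138 in Lat, a difference of 0.47 ± 0.13. DNM1L, which divides mitochondria, was at 56.9, 57.7 and 54.4 in Pa and at 145, 157, 135 and 140 in Lat, and rose from S-BM to Lat by 1.11 ± 0.08 (limma, adjusted p = 3.42e-07). OPA1, which fuses the inner membrane, lay near the 2-fold distance, lower by 1.05, and was not separated without Lat 3 (−0.959), without Pa 1 (−0.995) or after quantile normalization (−0.996). They were the 2 separated genes of 19 on the list of mitochondrial dynamics (10.5%), a share below that over all genes.

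**Figure D4:**
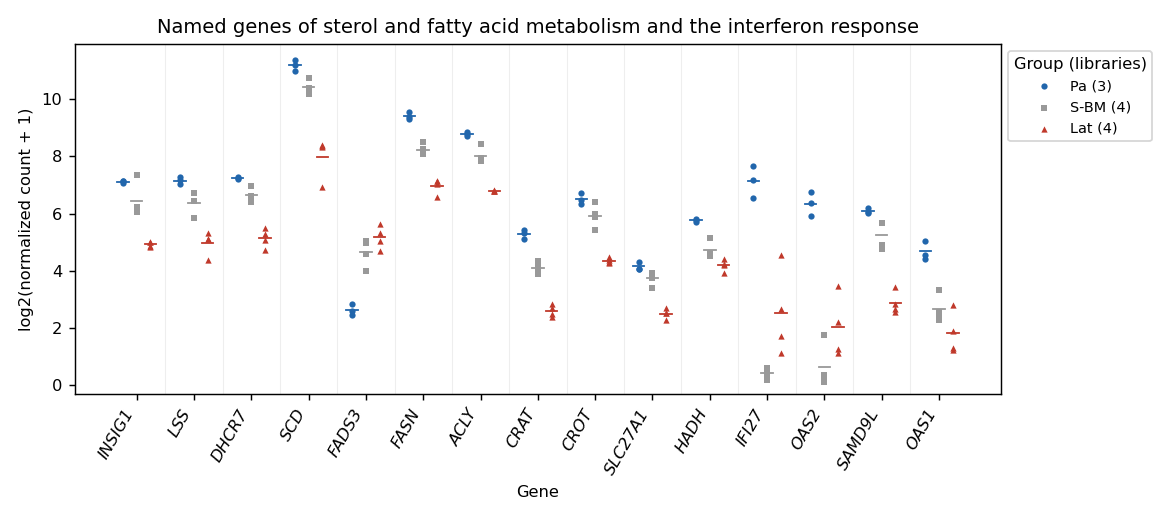
Log2(normalized count + 1) of every Pa, S-BM and Lat library for named genes of cholesterol and fatty acid synthesis, fatty acid oxidation and the interferon response. FADS3 is the only gene plotted that was higher in Lat, and at IFI27 and OAS2 the S-BM libraries lie below the Lat mean.

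Genes for cystine uptake were among the higher ones, and the glutamine synthetase gene was lower. SLC7A11, the cystine transporter subunit, was at 78.5, 68.4 and 66.3 in Pa and at 484, 540, 328 and 519 in Lat, with S-BM at 98.0 to 194, and rose from S-BM by 1.86 ± 0.21 (limma, adjusted p = 6.19e-06). Its partner SLC3A2 was higher by 1.91. GLUL, the glutamine synthetase, was at 1025, 1039 and 1078 in Pa and at 103, 94.9, 80.1 and 102 in Lat. S-BM lay at 154 to 315 for GLUL, nearer to Lat, and it fell from S-BM by 0.97 ± 0.19 (limma, adjusted p = 0.00055). Over the list of glutamine, cystine and glutathione genes 9 of 25 were higher and 3 lower, with a median of 0.16.

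Few genes of central carbon metabolism were separated. Of 47 oxidative phosphorylation genes 0 were separated, with a median of −0.26, and of 29 genes of the tricarboxylic acid cycle and its links 0 were higher and 4 lower. Of 22 glycolysis and lactate genes 0 were higher and 3 lower, these being PFKFB3, PFKFB4 and GPI. LDHA was at 517, 558 and 487 in Pa and at 686, 737, 747 and 686 in Lat, 0.46 apart. SLC2A1, the glucose transporter, was at 129, 123 and 135 in Pa and at 108, 100, 90.2 and 122 in Lat. SLC16A3, a lactate exporter, was at 49.8, 61.7 and 43.2 in Pa and at 72.6, 64.2, 20.1 and 75.5 in Lat, with Lat 3 below and the other Lat libraries above every Pa library.

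The integrated stress response, which cells start when amino acids are short or proteins misfold, was higher in 11 of 30 genes and lower in 2, with a median of 0.79. ATF4, its central factor, was higher by 1.27. PPP1R15A, which ends the response, was at 69.9, 66.5 and 65.3 in Pa and at 448, 408, 447 and 390 in Lat, and DDIT3 was at 11.9 to 13.1 in Pa and 49.6 to 76.5 in Lat. From S-BM to Lat 16 of 30 rose and 3 fell. In the unfolded protein response 2 of 25 were higher and 5 lower, 28% separated and near the 23.8% over all genes. The lower ones included the chaperones CALR and PDIA4 and, placed on that list, LMAN1. NRF2 targets split evenly, 6 higher and 6 lower of 24. ABCC2, an efflux pump, was at 3.11 to 5.51 in Pa and 32.7 to 63.0 in Lat, while the aldo-keto reductase AKR1B10 was at 94.5 to 156 in Pa and 4.4003 to 15.5 in Lat.

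Genes of ribosome assembly and MYC targets were higher in 10 of 30 and lower in 0, with a median of 0.86. ODC1, which starts polyamine synthesis, was at 36.1, 33.3 and 30.6 in Pa and at 174, 171, 167 and 131 in Lat, and MYC was higher by 1.16. NOP2, a methyltransferase of ribosomal RNA, was at 35.1 to 36.1 in Pa and 89.7 to 106 in Lat, but S-BM reached 78.4 to 91.7. Its change from S-BM, 0.25 ± 0.08, passed the test (limma, adjusted p = 0.0196) but not without S-BM 3 and S-BM 4 (0.121). Cytosolic ribosomal protein genes were not separated, 0 of 72, with a median of 0.18.

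Few genes of proliferation were separated. Of 32 mitosis genes 0 were higher and 2 lower (KIF20A and DLGAP5), with a median of 0.08, and of 39 DNA replication genes 4 were higher and 3 lower, with a median of 0.34. The 4 became 1 without Lat 3 or without Pa 3. Against S-BM, 16 of 32 mitosis genes rose and 2 fell, and 24 of 38 replication genes rose and 6 fell, beside 30.2% and 29.4% of all genes tested. Without S-BM 3 and S-BM 4 the mitosis genes gave 13 and 4 and the replication genes 19 and 5. Among cell-cycle inhibitors and dormancy genes 5 of 19 were higher and 3 lower. CDKN1A, which encodes p21, was at 76.8, 70.0 and 82.5 in Pa and at 283, 261, 364 and 352 in Lat. CDKN2B, which encodes p15, was at 160, 135 and 279 in Pa and at 36.9, 38.2, 35.9 and 62.3 in Lat. The linker histone HIST1H1B was at 456, 508 and 344 in Pa and at 3.65, 3.65, 35.8 and 23.3 in Lat, so Lat 1 and Lat 2 were nearly equal and Lat 3 and Lat 4 higher. Histone genes are near-identical copies, and reads between them are uncertain.

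The interferon response was lower in 19 of 28 genes and higher in 1, with a median of −1.36, the lowest of the 38 lists, and 27 of 28 differences were below 0. The exception was HERC5, higher by 2.30. IFI27, one of the most inducible of these genes, was at 92.0, 202 and 144 in Pa and at 2.31, 1.22, 22.7 and 5.37 in Lat. S-BM lay lower still, at 0.150 to 0.513, and the Lat value rested partly on Lat 3, since the difference was −4.60 with it and −5.28 without. OAS2, an antiviral enzyme, was at 59.3, 107 and 82.3 in Pa and at 1.18, 1.44, 10.2 and 3.63 in Lat, with S-BM at 0.0750 to 2.43. For these 2 genes, which carry the largest differences of the list, the other group of the Lat table was at least as far from Pa. SAMD9L was at 64.8, 73.0 and 63.2 in Pa and at 4.98, 5.37, 9.94 and 6.21 in Lat, with S-BM at 25.9 to 50.3. From S-BM to Lat 15 of 22 tested fell and 2 rose. IFI27, OAS2, OAS1 and IFIT1 were too low in the shared table to be tested. S-BM was low for OAS1 and IFIT1 as well, at 3.93 to 9.06 and 4.56 to 12.2. The count therefore leaves out members that were already low in S-BM. IFIT1 and IFIT3, whose promoters hold 2 matches of the response element each, were lower by 2.17 and 1.93.

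Surface molecules read by immune cells split. Antigen presentation genes were lower in 6 of 19 and higher in 0, with a median of −0.65. The share separated was 31.6%, beside 23.8% over all genes. HLA-DRB1 was at 26.9, 29.9 and 24.7 in Pa and at 2.93, 2.71, 0.828 and 3.07 in Lat, and HLA-DMA at 15.8 to 18.1 in Pa and 0.775 to 1.67 in Lat. HLA genes vary between and resemble each other, so their reads are uncertain. Of 11 natural killer and checkpoint ligands, 3 were higher and 3 lower. ULBP1, a ligand of the activating receptor NKG2D, was at 1.65, 0.874 and 1.64 in Pa and at 11.3, 12.1, 12.9 and 11.9 in Lat, and PVR, a ligand shared by activating and inhibiting receptors, at 82.9 to 97.4 in Pa and 269 to 304 in Lat. VTCN1, the inhibitory ligand B7-H4, was at 142, 153 and 200 in Pa and at 6.68, 7.20, 7.82 and 9.55 in Lat, and LGALS9 was lower by 4.27. TNFSF10 had the largest difference among 16 death receptor genes, of which 4 were lower and 2 higher (37.5% separated, beside 23.8% over all genes). BIRC3, an inhibitor of apoptosis, was at 36.7 to 46.4 in Pa and 121 to 368 in Lat. LIF, a cytokine of the interleukin-6 family, was at 7.15, 6.93 and 5.30 in Pa and at 70.8, 64.3, 93.8 and 68.3 in Lat.

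Retinoid handling genes were lower in 8 of 17 and higher in 1, with a median of −0.93, and CRABP2, which carries retinoic acid, was at 664, 644 and 835 in Pa and at 75.1, 69.3, 36.6 and 66.4 in Lat. Of 23 proteases and inhibitors 5 were higher and 9 lower. PLAT, the tissue plasminogen activator, was at 244, 411 and 244 in Pa and at 7.96, 8.69, 8.08 and 9.48 in Lat. S-BM reached 403 for PLAT, within the Pa range. In the TGF-beta pathway 5 of 22 were higher and 6 lower, 50% separated beside 23.8% over all genes. INHBA, an activin subunit, was at 15.4 to 17.6 in Pa and 49.2 to 168 in Lat, and BAMBI, a decoy receptor, at 84.3 to 96.6 in Pa and 7.40 to 10.04 in Lat. WNT5A, a secreted WNT, was at 53.3, 56.6 and 56.5 in Pa and at 1.03, 0.941, 4.61 and 1.95 in Lat, with S-BM at 1.22 to 11.2, again on the side of Lat. S100A8 was at 218 to 235 in Pa and 3.42 to 7.53 in Lat, with S-BM at 45.4 to 136.

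Of 42 markers of other cell types on 6 lists, 9 reached the level to be kept and 5 of these were separated (55.6%, beside 23.8% over all genes), 2 higher in Lat and 3 lower. CSF1R reached that level only in Lat and CDH5 only in Pa. For such low genes the filter itself favours separation, so the share is not read as an excess. SLC1A3, a glutamate transporter on the astrocyte list, was at 345, 313 and 425 in Pa and at 36.7 to 48.8 in Lat, and carried nearly all of that list's sum, 313 to 426 in Pa and 36.8 to 49.2 in Lat. CNP, on the oligodendrocyte list, was at 203 to 211 in Pa and 54.8 to 91.4 in Lat, and the list summed to 310.2 to 323 in Pa and 158 to 222 in Lat. On the same list MBP was at 103 to 109 in Pa and 92.5 to 121 in Lat, while OLIG2 and MAG were low but higher in Lat, at 4.14 to 5.16 against 0.437 to 0.596 and at 4.43 to 5.07 against 0.662 to 1.75. Neuron markers summed to 56.7 to 71.1 in Pa and 42.6 to 66.3 in Lat, with neither kept member, MAP2 or TUBB3, separated. CSF1R, the receptor of a macrophage growth factor, was higher in Lat, at 13.1, 12.8, 7.92 and 14.9 against 2.91, 2.998 and 3.44 in Pa, a difference of 1.65 ± 0.19. The 4 S-BM libraries, in order, had 3.13, 2.23, 12.1 and 13.7. The microglia and leukocyte list summed to 17.6 to 20.9 in Pa and 22.3 to 40.1 in Lat, with PTPRC, AIF1 and ITGAM below 1 throughout. CDH5, the endothelial cadherin, was lower in Lat, at 3.60 to 5.12 against 11.2 to 17.7, and its list summed to 20.6 to 28.4 in Pa and 7.53 to 8.42 in Lat. Fibroblast and pericyte markers summed to 11.7 to 15.0 in Pa and 28.2 to 37.9 in Lat, of which ACTA2 was separated and PDGFRA, PDGFRB and COL3A1 were below 1. Their part in other differences was not tested.

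The differences were spread unevenly over chromosomes. Positions were known for 9703 of the genes kept. On chromosome 20, 62 of 280 genes (22.1%) were higher and 17 (6.07%) lower, with a median of 0.53, against 10.04% and 13.7% over all genes. Each Lat library had a median between 0.45 and 0.56 there, and S-BM stood 0.12 from Pa. On chromosome 22, 52 of 231 (22.5%) were higher, with a median of 0.31, and S-BM stood at 0.22. Chromosome 9 had a median of 0.31 with S-BM at −0.01. Chromosomes 3 and 14 had few higher genes, 21 of 537 (3.91%) and 9 of 337 (2.67%), and medians of −0.28, with S-BM at −0.02 and −0.22. Chromosome 21 had the largest lower share, 20 of 93 (21.5%), and chromosome 19 had 118 of 611 (19.3%).

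**Figure D5:**
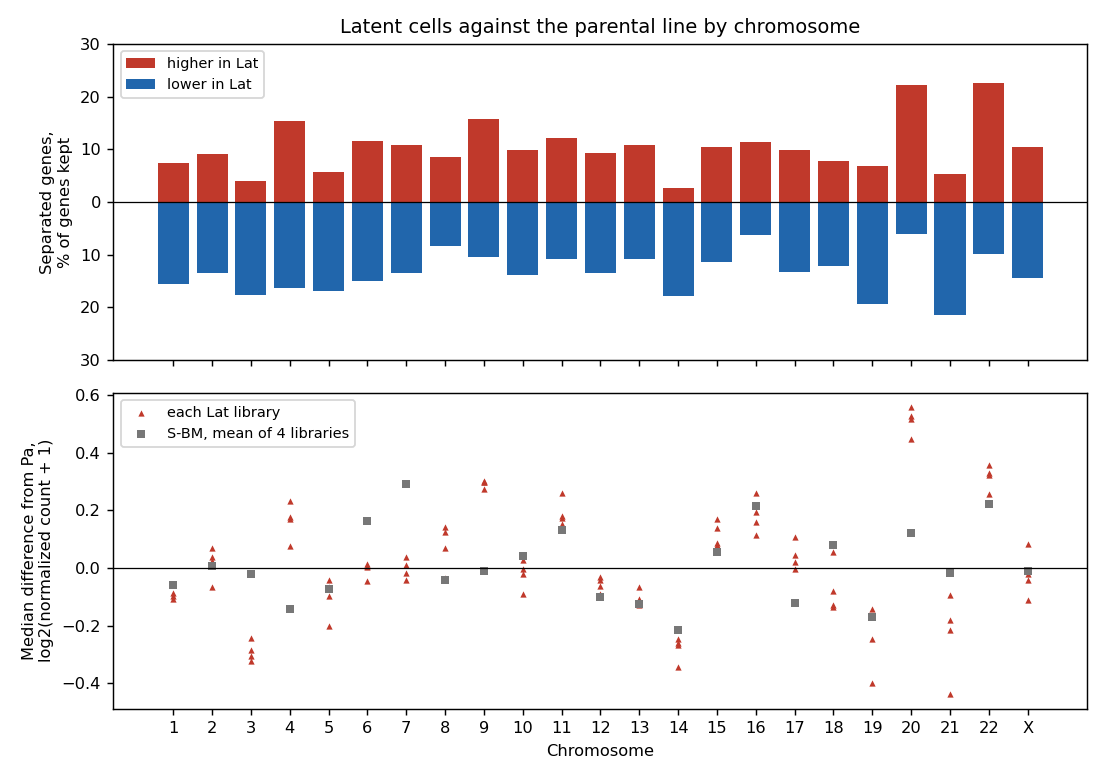
Upper panel, the percentage of genes kept that were separated and higher (red, up) or lower (blue, down) in Lat on each chromosome. Lower panel, the median difference from the Pa mean of log2(normalized count + 1) for each Lat library and for S-BM. Chromosome 20 has 22.1% higher, and its 4 Lat medians lie above the S-BM value.

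Neighbouring genes ran in 1 direction in 24 places, counting runs of at least 4 adjacent genes kept. The longest were 22 protocadherin gamma names on chromosome 5 (141330514 to 141512975, GRCh38) with a median of −1.23, and 9 UGT1A names on chromosome 2 (233617633 to 233773300) with a median of −1.52. Both are clusters whose transcripts share their last exons, so their values, nearly the same for every name, are not separate genes. UGT1A1 was at 394, 397 and 363 in Pa and at 151, 150, 94.2 and 147 in Lat. S-BM was above Pa for the protocadherins, with PCDHGA1 at 22.3 to 35.8 against 16.2 to 20.5, and at 5.21 to 8.65 in Lat.

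At the end of chromosome 22, 2 runs were higher. PIM3, TRABD, TUBGCP6, MAPK12 and MAPK11 (49960772 to 50270380) had a median of 2.49, and NCAPH2, SCO2, CHKB-CPT1B, CHKB, MAPK8IP2 and RABL2B (50508224 to 50783636) a median of 1.58. PIM3, a growth-promoting kinase, was at 12.2, 13.99 and 11.3 in Pa and at 156, 159, 163 and 111 in Lat, with S-BM at 15.1 to 28.9. MAPK8IP2, a scaffold of the JNK pathway, was at 0.132, 0.437 and 0.437 in Pa and at 21.8, 20.9, 20.8 and 19.0 in Lat, with S-BM at 0.600 to 1.77. CHKB-CPT1B is a readthrough name that overlaps CHKB, so these 2 share reads. On chromosome 10, FAS, LIPA, IFIT2, IFIT3 and IFIT1 (88964050 to 89414679) were all lower, with a median of −1.93. FAS, a death receptor, and LIPA, the lysosomal lipase, are not on the interferon list here. The annotated span of LIPA, 89213572 to 89414679, covers IFIT2, IFIT3 and IFIT1, so LIPA may share reads with them. On chromosome 17, KRT13, KRT15, KRT19 and KRT16 (41500981 to 41612767) were lower, with a median of −2.60. KRT19 and KRT16 were at −1.03 and −1.20. KRT19 lost its separation under several alternatives, and KRT16 without Pa 3 (−0.956). On chromosome 19, ZNF468, ZNF320, ZNF816 and ZNF702P (52838010 to 52993531) were higher, with a median of 2.04, and belong to a zinc finger cluster of similar sequences.

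The latent libraries were not alike. The median standard deviation over genes of log2(normalized count + 1) was 0.099 in Pa, 0.144 in Lat and 0.175 in S-BM. Lat 3 was the library farthest from Pa in 46.4% of the higher and 48.6% of the lower genes. Lat 4 was the nearest in 41.2% and 44.3%, and Lat 3 in 29.6% and 28.5%, so Lat 3 was often at either end. The widest ranges within Lat among separated genes were those of IGFBP5, IFI27, TSPAN1, SLC43A3 and TFPI2. TFPI2, a protease inhibitor, was at 0.265, 0.375 and 0.218 in Pa and at 60.4, 62.4, 5.80 and 35.2 in Lat, with a difference of 4.61 that became 5.34 without Lat 3. SLC43A3, a purine transporter, was at 33.7, 34.9 and 23.97 in Pa and at 2.11, 1.55, 23.3 and 1.95 in Lat, so Lat 3 lay next to Pa and the difference of −2.69 became −3.46 without it. IGFBP5, which binds insulin-like growth factors, was at 309, 441 and 543 in Pa and at 15.0, 14.9, 1.81 and 36.0 in Lat, and −5.04 became −4.32. TSPAN1, a tetraspanin, was at 242 to 277 in Pa and at 15.7, 14.5, 1.86 and 30.3 in Lat, and −4.42 became −3.72.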

How the data were processed

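RNA sequencing measured gene expression in cultures derived from the HCC1954 line. Per the labels' protocols, RNeasy columns yielded the RNA and the TruSeq RNA v2 chemistry, which does not mark strand, the libraries, so overlapping genes on opposite strands and near-identical copies cannot be told apart. Per the submitters' processing notes, Bowtie 0.12.2 and GRCh38 were used. How reads were counted, against which annotation, and how counts were normalized is not given in the sources used here.

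Both deposited tables hold signal values (normalized read counts). In every library all values above 0 were whole multiples, within 0.05 reads, of the value of 1 read, which gave the recovered reads. Pa came in a table of its own and Lat, S-BM and M-BM in a shared one, both with 19845 names in the same order. 27 names had been turned into dates. No column lacked a sample.

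Lat and Pa were joined by row order, genes with a value of at least 10 in 3 of 7 libraries were kept, and values were compared as log2(value + 1) with no test, because group and table cannot be told apart. A gene was called separated where no Lat library overlapped a Pa library and the means differed by at least 1 on the log2 scale. Fold changes on this scale understate the change of low genes. Lat and S-BM were compared in the shared table with limma 3.58.1 (R 4.3.3, trend, all 12 libraries, value at least 10 in 4 of 12, Benjamini-Hochberg adjusted p under 0.05). edgeR 4.0.16 and DESeq2 1.42.0 on the recovered reads were alternatives. The fits were tested on simulated data. Python 3.11.15, pandas 2.3.3 and numpy 2.4.6 did the rest. Limits from a count of 0 cover counting error only.

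The members, the gene lists and the tests were chosen with earlier results of these data known. Of 1153 entries in 44 lists, 1118 matched a name in the tables. Genes were named by rule: the 10 largest separated differences in each direction among genes whose higher group's mean was at least the median, up to 4 separated genes of each list, 16 genes chosen by name, genes of runs of at least 4 neighbours and the 5 widest Lat ranges, 279 genes in all, of which some are not reported here. Genes printed beyond this rule, such as FOXA1, SLC3A2, HERC5, YAP1, MYC, ATF4, SEC11C, PMAIP1, ZDHHC2, TLR4 and TSPAN12, were chosen after their values were seen. Gene positions and promoters came from RefSeq GRCh38.p14.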

Additional observations from a re-analysis of the deposited data

Results flagged for a closer look

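Among the 273 named genes reported on here, 40 had 1 Lat library far from the other 3: its gap to the nearest of them, divided by the range of all 4, exceeded Dixon's 95% critical value. Chance flags about 1 in 20 groups. Lat 3 was the library in 35 of the 40, Lat 4 in 4 and Lat 2 in 1. The values are normalized counts.

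Lat 3 stood above the other Lat libraries for 13 genes. FN1, fibronectin, was 4951 in Lat 3 and 1795 to 1940 in the others. VIM, the mesenchymal filament vimentin, was 37.0 against 5.65 to 6.06. INHBA, a subunit of activin, was 168 against 49.2 to 66.6. FOSL1, an AP-1 subunit, was 247 against 174 to 179. The purine transporter gene SLC43A3 was 23.3 against 1.55 to 2.11, and the keratin gene KRT6A 4.92 against 0.616 to 0.976. Lat 3 was also the highest for ELFN2 (47.7 against 20.5 to 23.2), KANK1 (38.1 against 19.6 to 22.5), GSTM3 (37.3 against 18.4 to 21.6), TNIK (10.7 against 6.48 to 6.78), DOCK8 (5.69 against 2.52 to 2.58), CDH5 (5.12 against 3.60 to 3.75) and TMEM14B (166 against 117 to 122).

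Lat 3 stood below the others for SCD, the stearoyl-CoA desaturase (120 against 317 to 332), and BMP7 (14.7 against 34.2 to 37.8). It was also the lowest for ABCC5 (16.8 against 32.0 to 32.6), ALDH16A1 (5.07 against 9.28 to 9.55), S100A9 (37.4 against 71.0 to 74.8), POLD1 (5.54 against 10.5 to 11.4), PPFIA3 (3.52 against 6.70 to 7.25) and KIF20A (65.0 against 88.3 to 89.98). The same held for SUCLG2 (21.4 against 32.3 to 34.3), FNDC3B (106 against 122 to 123), TOMM6 (122 against 138 to 140), HLA-DRB1 (0.828 against 2.71 to 3.07) and KRT13 (1.29 against 2.44 to 2.67). 9 names of the UGT1A locus, which share exons and so share reads, are 1 signal. UGT1A4, UGT1A8, UGT1A9 and UGT1A10 were 94.0 in Lat 3, UGT1A1 and UGT1A5 94.2, and UGT1A3 and UGT1A7 94.3, against 147 to 152 in the others. UGT1A6 was 107 against 164 to 173.

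Lat 4 was the highest for CDKN2B, an inhibitor of cyclin-dependent kinases (62.3 against 35.9 to 38.2), CEACAM6 (14.1 against 6.20 to 6.99) and CEACAM1 (1.46 against 0.828 to 0.873), and the lowest for PIM3 (111 against 156 to 163). Lat 2 was the lowest for CARD10 (55.9 against 64.6 to 65.4).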

How the results depend on the processing

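Of the 984 genes higher and 1346 lower in Lat than in Pa, the other scalings, pseudocounts and filters gave between 753 (pseudocount 5) and 1430 (no filter) higher and between 1115 and 1846 lower, and leaving out 1 library at a time gave 956 to 1009 higher and 1316 to 1380 lower. The higher share was 42.2%, and 40.3% to 47.4% over these alternatives. Averaging Lat 1 and Lat 2 as 1 library, a choice made after seeing the data, gave 977 and 1342. For Lat against S-BM, limma's 5754 genes became 5675 with the replicate block, 5644 with those 2 groups alone, 5760 after quantile normalization, 7444 with a minimum of 1, 7982 with no filter, 5748 with edgeR, 5903 with DESeq2, 5176 to 5545 without 1 library, and 5112 without S-BM 3 and S-BM 4, which was also chosen after seeing the data. All 49 alternatives of these counts stayed within 1.5 times the main count. When S-BM 3 and S-BM 4 were dropped, 15 luminal genes fell (14 with all libraries), 13 of cholesterol synthesis (16), 12 interferon-stimulated genes (15) and 7 of the NOTCH pathway (8), and 14 early response genes (14) and 14 of the integrated stress response (16) rose. Between Lat and Pa, no separated named gene changed sign, and of those not separated SLC16A3, near 0, did. Against S-BM, 6 named genes whose difference had not passed the test changed sign under at least 1 alternative. Without S-BM 3 and S-BM 4 these were ERBB2 (−0.45, adjusted p = 0.0418 with limma), GPX2 (0.46), HIST1H3G (0.29) and SLC16A3 (−0.025). Leaving out 1 library at a time gave ranges of −0.193 to 0.121 for HIST1H3G, −0.132 to 0.488 for SLC16A3, −0.0895 to 0.106 for SLC2A1, −0.685 to 0.242 for GPX2 and −0.284 to 0.014 for SPTSSA, and none of these values of opposite sign passed the test; the cause was not tested. Some named genes kept their sign but passed or failed the test depending on S-BM 3 and S-BM 4. Without them CALD1, INHBA and DKK1 no longer passed, with adjusted p (limma) from 0.0394 to 0.123, 0.0465 to 0.187 and 0.0077 to 0.125. CSF1R, LDHA and KRT16 passed without them, from 0.094 to 0.000251, 0.128 to 0.0158 and 0.143 to 0.0202. Same-numbered Lat and S-BM libraries had residual correlations of −0.027 to 0.191, with 1 of 4 over 0.1, so no pairing by number was applied. Of 279 named genes, 53 changed their separation between Lat and Pa under at least 1 alternative, 31 of them only with a pseudocount of 5, and the differences of ACTA2, IFI27, IGFBP5, SLC43A3, TFPI2 and TSPAN1 moved by over 1.5 times without Lat 3 (to 2.92, −5.28, −4.32, −3.46, 5.34 and −3.72). Among the recounts of the lists, 30 moved by over 1.5 times and 1378 did not; those with at least 3 genes follow. HER2 amplicon genes higher in Lat went from 3 to 1 without Pa 3, DNA replication genes higher from 4 to 1 without Lat 3, without Pa 3 or with a pseudocount of 5, and cell-cycle inhibitors lower from 3 to 5 with a pseudocount of 0.25; the cause was not tested. Genes at values near 0 are limited by depth.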
